A study of Mus musculus with 26 samples.

Results

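The subject is the Myod1 locus of the mouse myoblast line C2C12: 80 kb of chromosome 7 (mm9, 53580000 to 53660000) with the gene, its promoter, its distal regulatory region (DRR) and its core enhancer. Every peak that touched this window was taken, 75 of the 762764 peaks on placed chromosomes in 16 lists. Of these, 25 came from SMC3 ChIP-seq, 40 from ATAC-seq and 10 from ChIRP-seq. The position of a peak alone chose it, so its score and the libraries that called it were free to vary.

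Myod1 encodes MyoD, the basic helix-loop-helix factor that commits cells to skeletal muscle and binds E-box motifs in muscle genes. Its transcription is driven by a promoter and by upstream enhancers, of which the DRR and the core enhancer are the best known. Enhancers can themselves be copied into enhancer RNA, and the RNA made at the DRR is the one whose sites on chromatin the study mapped. Cohesin is a ring complex that holds and extrudes chromatin loops, and SMC3 is one of its core subunits.

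All groups were C2C12 cells with 2 libraries each. SMC3 was mapped in myotubes transfected with siDRR, an siRNA against the DRR RNA, in myotubes for which the labels give no transfection, and in myoblasts. Accessible chromatin was mapped by ATAC-seq, in which a transposase cuts open DNA, in myotubes given siDRR, siSmc3 or control siRNA. The DRR RNA was mapped by ChIRP-seq in myotubes of unlabelled transfection. In that assay a pool of biotinylated probes complementary to the RNA, and hence to one strand of the DNA it is copied from, pulls down chromatin, and 2 separate probe pools were used. Myoblasts grew in 20% serum and myotubes formed in 2% horse serum. The other 10 samples, inputs and LacZ-probe controls, were not analysed here, and no value below has a background library beside it. RNA levels, and with them the depth of either knockdown, were not analysed here.

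Lists ranged from 3765 to 103055 peaks and differed within groups: SMC3 lists held 8384 and 23196 peaks with siDRR, 15056 and 26765 in myotubes and 30955 and 33154 in myoblasts. No list gives read counts, so the sequencing depth is unknown, and a peak that is missing from a short list may have stood below its threshold. Scores are the authors' own, on a scale that is not stated, and served only to place a peak inside its list. A rank percentile is the percentage of a list's peaks with a score at or below that of the peak, so the best peaks stand near 100. The labels do not say whether replicates were separate cultures, and the spread within a group may be technical.

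Distances below are counted from position 53631800, near the start of Myod1, which is on the plus strand, and negative values lie upstream. Elements were set by distance alone: the promoter from -1 to 1 kb, the DRR from -7 to -4 kb and the core enhancer from -25 to -18 kb. In RefSeq the neighbours of Myod1 are the long noncoding RNA gene Gm45923 and then Otog before it, and Kcnc1 and then Sergef after it. Gm45923 is shown because it is the gene that RefSeq places next to Myod1 on the side of the DRR; the sources used here do not say whether it is the transcript that the probes and siDRR were made against. Its promoter (RefSeq, GRCm38.p6, chr7:46371153-46371452, plus strand), from 250 bases before its start to 50 after, reads as follows, with matches to the E-box CANNTG and to TATAAA on either strand in capitals.
Gm45923: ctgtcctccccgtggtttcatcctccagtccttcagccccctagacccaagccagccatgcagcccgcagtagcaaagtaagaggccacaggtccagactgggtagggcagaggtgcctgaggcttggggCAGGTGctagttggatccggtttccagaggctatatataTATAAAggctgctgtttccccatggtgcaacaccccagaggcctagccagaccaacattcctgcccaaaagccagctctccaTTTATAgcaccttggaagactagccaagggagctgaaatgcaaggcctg

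The promoter held 1 E-box, CAGGTG, at -120 to -115 from its own start, and 72.3% of 32851 promoters of the same length held at least 1. TATAAA occurred at -81 to -76 and, on the other strand, at 2 to 7, and 2.36% of promoters held it 2 or more times. No E-box match overlapped a TATAAA match. These are letter matches, not shown to be bound sites. GRCm38 positions were not carried over to mm9, so this sequence was not placed under a peak.

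Merging the SMC3 and ATAC peaks of all 12 interval lists gave 10 sites in the window. In order along the chromosome their middles lay at -38.7, -34.8, -25.9, -23.0, -16.5, 0.16, 3.17, 16.9, 20.4 and 21.6 kb. ATAC libraries called -38.7, -34.8, -23.0 and 20.4 kb in 6 of 6 lists, and these 4 of 10 ATAC regions compare with 9.74% of regions over the genome. SMC3 libraries called 3.17 and 16.9 kb in 6 of 6 lists, 2 of 7 SMC3 regions, against 16.1% over the genome. The accessible sites that every ATAC library shared and the cohesin sites that every SMC3 library shared were different sites. No other site could be shared by all SMC3 lists, because siDRR replicate 1, with 8384 peaks, held only peaks at 3.17 and 16.9 kb. The SMC3 lists also include myoblasts, where all ATAC lists are of myotubes. Site -23.0 kb, called in 6 of 6 ATAC lists, was called in 4 of 6 SMC3 lists, among them both myotube lists. The -16.5 kb site was called by 1 ATAC library (siDRR replicate 1, percentile 10.2) and the 21.6 kb site by 1 (siSmc3 replicate 1, percentile 19.0).

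**Figure D1:**
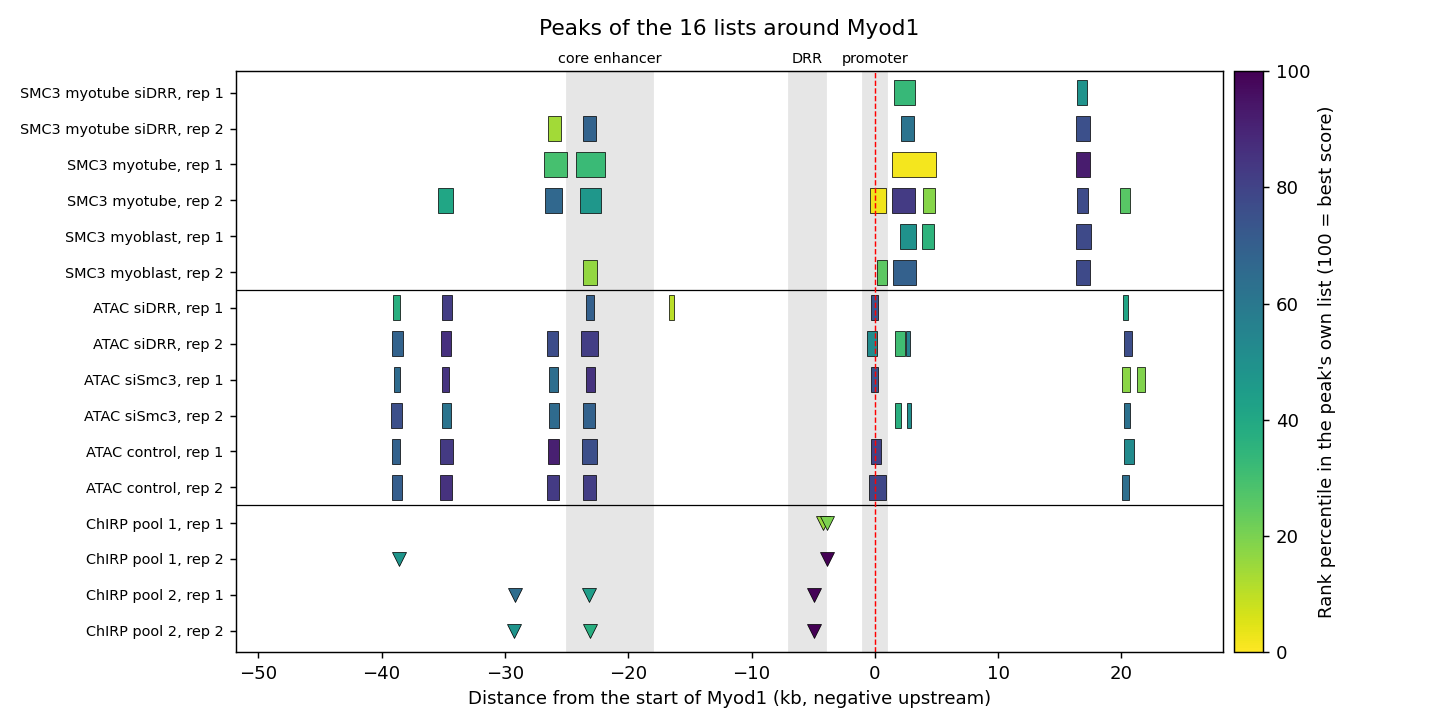
Each row is 1 library and each box a SMC3 or ATAC peak drawn to scale; triangles are ChIRP summits, colour is the rank percentile in the peak's own list, the dashed line marks position 53631800 and grey bands the elements. ATAC peaks line up at -38.7, -34.8, -23.0 and 20.4 kb in 6 of 6 rows, SMC3 peaks at 3.17 and 16.9 kb in 6 of 6 rows, and the DRR band holds ChIRP summits and no box.

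The window held more peaks than the median stretch of its length in 12 of 12 interval lists. SMC3 peaks numbered 2 and 4 with siDRR, 4 and 8 in myotubes and 3 and 4 in myoblasts, where the median of 33025 tiles of 80 kb over the genome was 0 in each list. A median of 0 is exceeded by any stretch that holds a peak. In myotube replicate 2, 0.136% of tiles held as many peaks as the Myod1 window, and in myoblast replicate 1, 13.3% did. ATAC peaks numbered 6 and 8 with siDRR, 7 and 7 with siSmc3 and 6 and 6 in controls, against tile medians of 1 to 2. As many ATAC peaks were held by 9.3% and 11.2% of tiles with siDRR, 8.0% and 17.4% with siSmc3 and 6.6% and 22.1% in controls.

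At the window's edges, the outermost peaks inside were the ATAC peaks at -38.7 and 21.6 kb. The nearest outside were an SMC3 peak of siDRR replicate 1 at -59.3 kb (percentile 40.1) and an ATAC peak of siDRR replicate 2 at 28.4 kb (percentile 13.6).

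The DRR RNA's own neighbourhood carried the best-ranked ChIRP summit of the window in 4 of 4 libraries. In pool 1 replicate 1 the window held no summit elsewhere, so this was fixed for that library. The probes are also complementary to the DNA that the RNA is copied from, and direct capture of that DNA was not tested. Pool 2 had a summit at 53626833 in replicate 1 and at 53626828 in replicate 2, at -4.97 kb in both and inside the DRR. They ranked 123 of 22984 and 13 of 20206, with scores of 39.6 and 102.4. Both libraries thus had the DRR near the top of the whole list, at almost the same base.

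Pool 1 pointed next to it. Replicate 2 had a summit at 53627948 (-3.85 kb), ranked 40 of 68233 with a score of 299.3. Replicate 1 had summits at 53627579 (-4.22 kb) and 53627902 (-3.90 kb), ranked 3183 and 3028 of 3765. Pool 1 therefore split: the position was called in both libraries, near the top of the long list and in the lower part of the short one. The summits at -3.90 and -3.85 kb fall just outside the DRR as bounded here.

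The pools did not call the same point. Between them lay 746 to 1120 bp, with pool 1 nearer to Myod1. With 250 bp added on each side of a summit, the window held 5 ChIRP regions, and 0 were shared by the pools, against 1.18% over the genome. With 500 bp on each side, 1 region at the DRR was shared. Both libraries of pool 2 called 3 of the 5 regions (12.9% over the genome), and both of pool 1 called 1 (3.70%).

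Neither cohesin nor accessible chromatin was called at the DRR. The 6 SMC3 lists and the 6 ATAC lists held 0 peaks from 53615518 to 53631126, a stretch of 15609 bp that includes the whole DRR and the ChIRP summits of both pools next to it. This was so in control, siDRR and siSmc3 cells, and in myoblasts for SMC3. At an unknown depth it says that no peak passed the authors' threshold there, not that the DRR was closed or free of cohesin. Tiles of 80 kb over the genome held on average 0.254 to 1.00 SMC3 peaks and 1.76 to 3.12 ATAC peaks per list. A shorter stretch without a peak is therefore not unusual in a single list. How often such a stretch is empty in all 12 lists was not computed, so the absence is not shown to be particular to the DRR.

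**Figure D2:**
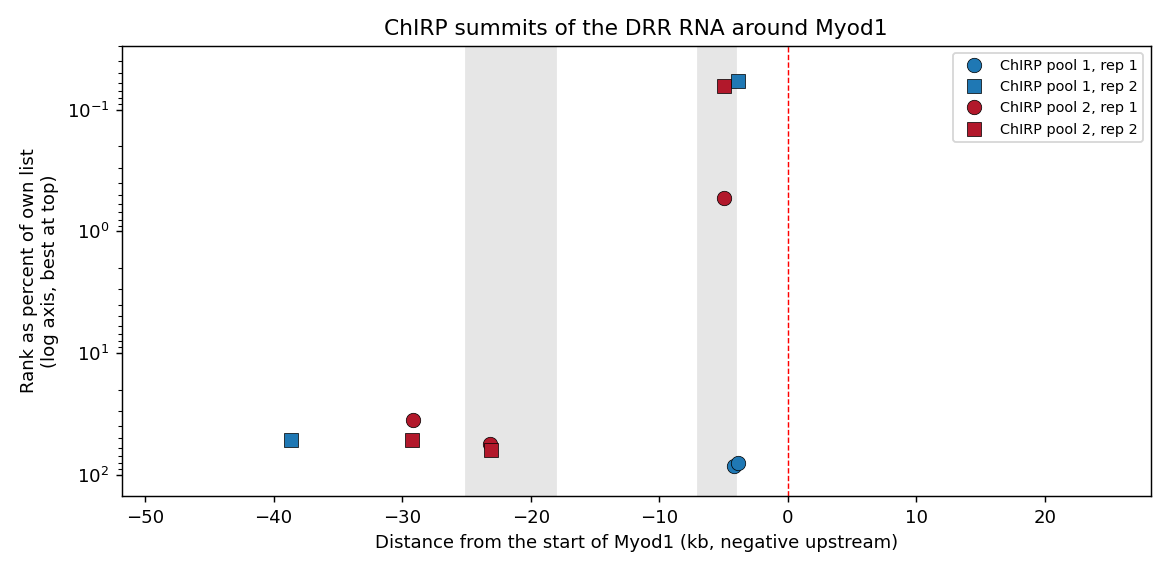
Rank of each ChIRP summit as a percent of its own list (log axis, best at the top) against distance from position 53631800, with the DRR and core enhancer bands in grey. Pool 2 in both libraries and pool 1 in replicate 2 rank 123 or better near the DRR, pool 1 replicate 1 ranks 3028 and 3183 of 3765, and the summits farther upstream lie mid-list.

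Farther upstream, pool 2 also had a pair of summits in the core enhancer. They lay at 53608662 in replicate 1 and 53608714 in replicate 2 (-23.1 kb in both), at percentiles of 44.1 and 37.5. They fell inside the -23.0 kb site, which carried ATAC peaks in 6 of 6 lists and SMC3 peaks in both myotube lists. Of the 3 pool 2 regions of the window, 1 met an ATAC region of both controls (5.13% of 12510 over the genome), and the same 1 also met an SMC3 region of both myotube libraries (0.536%). This is 1 region with summits of middling rank, and pool 1 had none there.

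The third pool 2 pair lay at -29.2 kb, at 53602619 and 53602567, with percentiles of 64.6 and 48.4, and met no SMC3 or ATAC peak. Pool 1 replicate 2 had a further summit at 53593193 (-38.6 kb, percentile 48.0) inside the -38.7 kb accessible site. That summit was not called in pool 1 replicate 1 or in pool 2.

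The comparison of myotubes with myoblasts asked where cohesin stood before and after differentiation. SMC3 peaks covered more of the window in myotubes: 8868 and 10182 bp in myotubes, against 3433 and 5035 bp in myoblasts. The groups did not overlap, and both myoblast lists were longer than both myotube lists. The means were 9525 ± 929 bp in myotubes and 4234 ± 1133 bp in myoblasts (SD, n = 2 each), a difference of 5291 bp. A two-sided exact permutation test gave p = 0.333, the smallest that 2 libraries against 2 allow, so no difference could pass it. Per 10000 bp covered by the whole list, the window took 4.45 and 2.87 bp in myotubes and 0.887 and 0.993 bp in myoblasts.

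More of the added length lay upstream, which is also the longer part of the window. Whether this exceeds what its greater length alone would give was not tested. More than 1 kb before the gene, SMC3 peaks covered 4230 and 4274 bp in myotubes, against 0 and 1167 bp in myoblasts, a difference of means of 3668.5 bp. From there to the downstream end of the window they covered 4638 and 5908 bp in myotubes, against 3433 and 3868 bp in myoblasts, a difference of 1622.5 bp. Site -25.9 kb (53604960 to 53606871) was called in both myotube libraries, at percentiles of 29.3 and 66.6, and in neither myoblast library. It was the only one of 7 SMC3 regions in the window gained by this rule, against 0.789% over the genome, and 0 were lost, against 12.8%. The middle of site -25.9 kb lies just outside the distance set for the core enhancer, and its peak in myotube replicate 1 reached -24.93 kb, inside that distance. The core enhancer itself, site -23.0 kb, was called in both myotube libraries (percentiles 32.2 and 47.1) and in myoblast replicate 2 alone (16.1). With the 4 lists cut to 15056 peaks each, both -25.9 and -23.0 kb counted as gained. With the better-scoring 50% of each list neither did, the difference in covered length was 551.5 bp, and the groups were no longer separated.

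SMC3 peaks at the core enhancer were also wider in myotubes. They spanned 2318 and 1672 bp in the myotube libraries, against 1167 bp in the 1 myoblast library that called the site. Median widths of all peaks in the myotube lists, 1171 and 1126 bp, were close to those of the myoblast lists, 1079 and 1266 bp. Within the window the medians were 2115 and 1215 bp in myotubes and 1164 and 1159 bp in myoblasts. Wide peaks in myotube replicate 1 were thus not confined to the core enhancer.

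Cohesin at the gene and beyond it was called in myoblasts as well. Sites 3.17 and 16.9 kb, 2 of 7 regions, were called in all 4 libraries, against 30.6% over the genome. Site 16.9 kb, downstream of the gene, stood at percentiles of 92.3 and 77.3 in myotubes, against 77.5 and 77.4 in myoblasts. It was the best SMC3 peak of the window in both myoblast libraries and in myotube replicate 1. Site 3.17 kb (53633201 to 53636730) begins 1.40 kb after position 53631800, and RefSeq gives Myod1 a length of 2619 bp. It carried peaks at percentiles of 1.79 and 82.6 in myotubes, against 49.6 and 69.5 in myoblasts. In myotube replicate 1 this was a single peak of 3530 bp that barely passed the threshold, where the other 3 libraries had narrower peaks.

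The promoter was a weak SMC3 site. Peaks at 0.16 kb were called in replicate 2 of each group only, at a percentile of 2.30 in myotubes and 25.4 in myoblasts. Sites -34.8 and 20.4 kb were called by myotube replicate 2 alone, at 40.9 and 26.1. Percentiles of lists of different length are given as places in the list and show no change between groups.

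**Figure D3:**
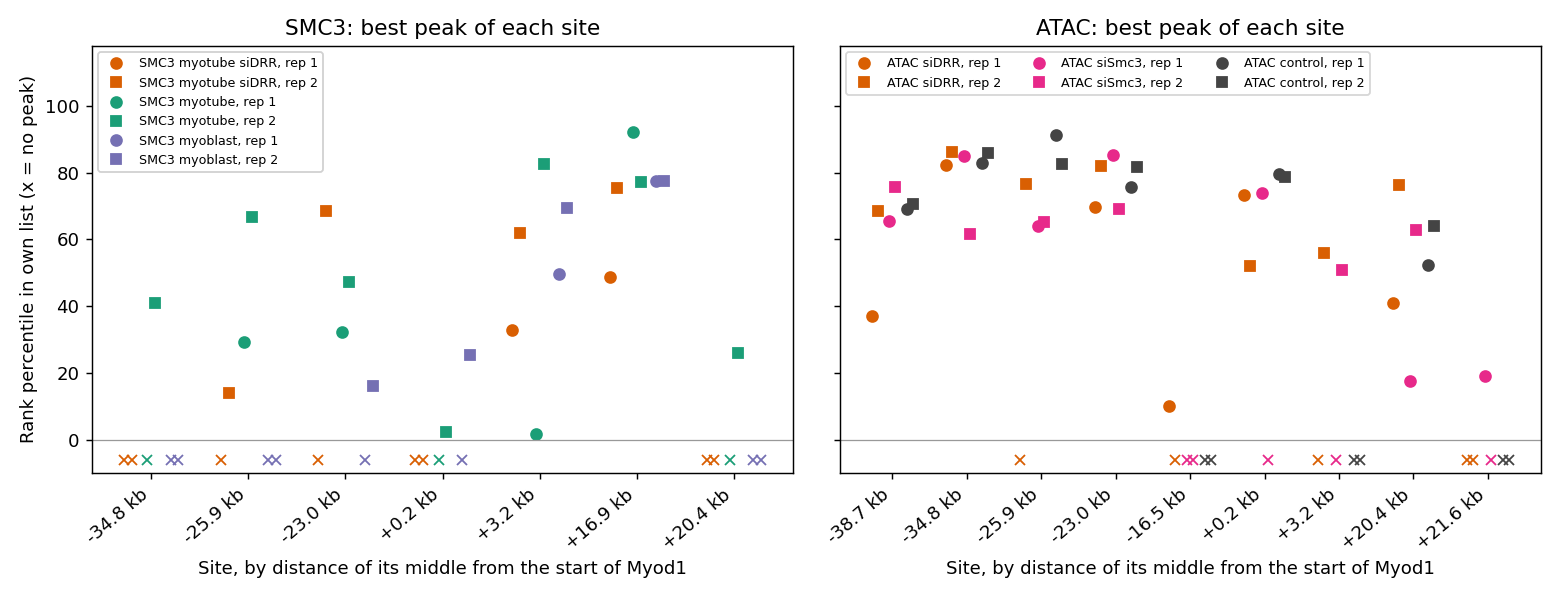
Rank percentile of the best peak at each site, SMC3 on the left and ATAC on the right, with circles for replicate 1, squares for replicate 2 and crosses for no peak. SMC3 at 16.9 kb has a point in 6 of 6 libraries, SMC3 at -25.9 kb has points in both myotube libraries and crosses in both myoblast libraries, and ATAC at 0.16 kb has a cross in siSmc3 replicate 2.

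The siDRR libraries asked whether cohesin at the locus that makes the RNA differed once the RNA was targeted. The myotubes set against them have no transfection in their labels, and no SMC3 group was given control siRNA. An effect of siDRR therefore cannot be told apart here from one of transfection. SMC3 peaks covered 2451 and 4220 bp of the window with siDRR, against 8868 and 10182 bp in myotubes. The groups did not overlap. The means were 3336 ± 1251 bp with siDRR and 9525 ± 929 bp in myotubes (SD, n = 2 each), a difference of -6189.5 bp (p = 0.333, two-sided exact permutation test, the smallest possible). The direction turned when lists were made equal in length: with 8384 peaks in each, the difference was 332 bp (p = 1.000, two-sided exact permutation test). The siDRR replicate 1 list set that length. With full lists the difference was -5962 bp without replicate 1 and -6417 bp without replicate 2. With the better-scoring 50% of each list it was -1072 bp, and the groups were no longer separated (p = 0.667, two-sided exact permutation test). Per 10000 bp covered by the full list, the window took 2.66 and 1.44 bp with siDRR and 4.45 and 2.87 bp in myotubes, and on this scale the groups did not overlap.

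No SMC3 region of the window met the rule for loss: 0 of 7 were lost under siDRR, against 2.91% over the genome, and 0 were gained, against 0.13%. Both upstream sites were missing in siDRR replicate 1 and present in replicate 2. In replicate 2 site -25.9 kb stood at percentile 13.9, against 29.3 and 66.6 in myotubes, and site -23.0 kb at 68.6, against 32.2 and 47.1. The 2 neighbouring sites, less than 3 kb apart, were thus placed differently in the same siDRR library: the core enhancer was its second best peak of the window and -25.9 kb its weakest. In both myotube libraries they held adjacent places, with the core enhancer ahead in replicate 1 and -25.9 kb ahead in replicate 2. The siDRR placing rests on 1 library with 4 SMC3 peaks in the window.

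Sites 3.17 and 16.9 kb were called in both siDRR and both myotube libraries, 2 of 7 regions, against 23.2% over the genome. Site 16.9 kb had percentiles of 48.6 and 75.5 with siDRR and 92.3 and 77.3 in myotubes, and was the best SMC3 peak of the window in both siDRR libraries. Site 3.17 kb had 32.9 and 62.1 with siDRR, against 1.79 and 82.6 in myotubes. Sites -34.8, 0.16 and 20.4 kb had no SMC3 peak with siDRR, and in myotubes only replicate 2 had called them. Peaks at -25.9 and -23.0 kb spanned 1043 and 1037 bp in siDRR replicate 2, against 1912 and 2318 bp in myotube replicate 1 and 1420 and 1672 bp in replicate 2.

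**Figure D4:**
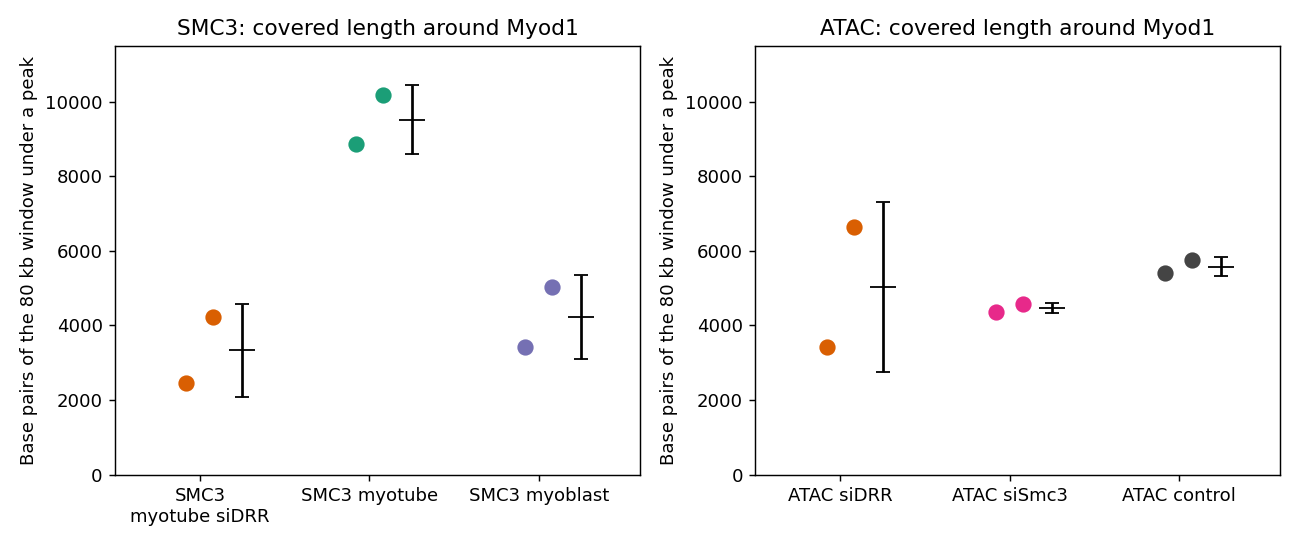
Base pairs of the 80 kb window under a peak in each library (points), with mean and SD (bars, n = 2), SMC3 on the left and ATAC on the right. SMC3 reaches 8868 and 10182 bp in myotubes, above 2451 and 4220 bp with siDRR and 3433 and 5035 bp in myoblasts, and ATAC control libraries at 5402 and 5760 bp lie above both siSmc3 libraries and between the siDRR libraries.

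ATAC-seq under siDRR asked whether accessibility at the locus differed once the RNA was targeted. Of 9 ATAC regions in the window, 5 were called in all 4 libraries, against 16.3% over the genome. These were the regions at -38.7, -34.7, -23.1, 0.13 and 20.5 kb in this comparison. None was lost (1.31% over the genome) and none gained (1.44%). The core enhancer stood at percentiles of 69.9 and 82.0 with siDRR and 75.8 and 81.7 in controls. Site -34.8 kb was the best accessible peak of the window in both siDRR libraries, at 82.2 and 86.3, against 83.0 and 85.9 in controls.

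Site -25.9 kb, where SMC3 was called in both myotube and neither myoblast library, was called in 3 of the 4 ATAC libraries. It was the best and the second best ATAC peak of the window in the 2 control libraries, at percentiles of 91.2 and 82.5. With siDRR it was missing from replicate 1 and stood at 76.7 in replicate 2. The siDRR replicate 1 list held 69840 peaks, and that of control replicate 1, which called the site, held 58137. List length does not give the sequencing depth, and the reason for the missing peak was not tested. The same 2 siDRR library numbers, replicate 1 without and replicate 2 with a peak, recur for SMC3 and ATAC at this site; the labels do not say that a number marks a shared culture.

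The Myod1 promoter was called in both siDRR libraries. Its ATAC peaks ranked at 73.4 and 51.9 with siDRR, against 79.7 and 78.8 in controls, and spanned 624 and 885 bp, against 791 and 1378 bp. Both siDRR values lay below both control values, which with lists of unequal length is a description only. In siDRR replicate 2 the promoter was the weakest of the 7 sites that the library called, behind a peak at 2.69 kb (53634294 to 53634690, percentile 55.9) that no control library had. That library also had a peak at 2.05 kb.

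Covered length of accessible chromatin did not separate siDRR from control. It was 3432 and 6655 bp with siDRR, on either side of the 5402 and 5760 bp in controls. The means were 5044 ± 2279 bp with siDRR and 5581 ± 253 bp in controls (SD, n = 2 each; p = 1.000, two-sided exact permutation test). The difference of -537.5 bp became 895 bp without replicate 1 and -1970 bp without replicate 2, so each library decided its direction.

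The siSmc3 libraries asked whether accessibility at the locus differed once cohesin was targeted. Accessible peaks covered 4368 and 4568 bp with siSmc3, against 5402 and 5760 bp in controls, and the groups did not overlap. The means were 4468 ± 141 bp with siSmc3 and 5581 ± 253 bp in controls (SD, n = 2 each), a difference of -1113 bp (p = 0.333, two-sided exact permutation test, the smallest possible). Per 10000 bp covered by the list, the window took 0.915 and 0.605 bp with siSmc3 and 1.10 and 0.856 bp in controls, and on this scale the groups overlapped. Both siSmc3 lists held more peaks than control replicate 1, and the difference was -2049.5 bp with lists cut to 58137 peaks. Peaks at the core enhancer spanned 723 and 922 bp with siSmc3 and 1171 and 1070 bp in controls. Single peaks of the whole lists had median widths of 480 and 570 bp with siSmc3 and 704 and 517 bp in controls.

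Of 9 ATAC regions in this comparison 5 were called in all 4 libraries, against 13.6% over the genome, with 0 lost (1.71%) and 0 gained (1.93%). Site -25.9 kb was called in both siSmc3 libraries, at percentiles of 64.1 and 65.3, against 91.2 and 82.5 in controls. It was the fifth and the third of the window's sites by score there, where in controls it was the first and the second. The core enhancer stood at 85.4 and 69.1 with siSmc3 and at 75.8 and 81.7 in controls, and was the first and the second site.

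The promoter was called in siSmc3 replicate 1, at percentile 73.8. In siSmc3 replicate 2, whose list was the longest of all with 103055 peaks, it had no ATAC peak, and the reason was not tested. Controls had it at 79.7 and 78.8. In the library without a promoter peak, peaks stood at 1.86 kb (53633412 to 53633910, percentile 36.7) and 2.79 kb (53634437 to 53634753, percentile 50.7), inside site 3.17 kb. Replicate 2 of siDRR had peaks in the same place, and neither control library did. Both knockdowns are set against the same 2 control libraries.

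Calls of cohesin and of accessibility met at the upstream pair, across myotubes that differ in their labels. The SMC3 myotubes have no transfection in their labels, and the ATAC controls were given control siRNA. Of 4 SMC3 regions that both myotube libraries called in the window, 2 overlapped an ATAC region of both controls, against 25.2% of 13885 regions over the genome. They were -25.9 and -23.0 kb. The other two, at 3.17 and 16.9 kb, had no ATAC peak in controls, and 16.9 kb had none in any of the 6 ATAC lists. Of 6 ATAC regions of both controls, the same 2 carried SMC3 in both myotube libraries, against 9.39% of 38788 regions over the genome.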

How the data were processed

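Peak lists of 16 libraries were used, 1 list per library, on build mm9. Per the submitters' processing notes, MACS2, MACS 1.4.2, Bowtie2 2.2.4, Bowtie 1.1.1, cutadapt 1.12, bcl2fastq 2.17.1 and CASAVA 1.8.2 were used, and no roles are given for them. Control libraries, read filters, shifting of ATAC reads and call thresholds: not given in the sources used here. Each deposited list gives positions and a score by the authors' peak caller, of unstated scale, with lowest values of 50 for SMC3 and 30 for ATAC. ChIRP lists hold single-base summits.

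Starts were made 1-based, and 0 to 579 peaks per list on other contigs were left out. Peaks of the 4 libraries in a comparison became 1 region where they shared at least 1 bp (Python 3.11.15, pandas 2.3.3). A region was lost when both libraries of the control or earlier group and neither of the other called it, and gained in the opposite case. Covered length was compared by a two-sided exact permutation test. Region calling and the exact tests were tested on simulated data. Every region of the window is named. Alternatives were shorter lists, other merging and call rules, other widths of ChIRP summits, a narrower window, each replicate left out and a replicate block. The window and elements were chosen with earlier results of these data known. RefSeq tables of GRCm38.p6 gave gene names and the promoter; 1 of 2 symbols looked up had an entry.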

Additional observations from a re-analysis of the deposited data

How the results depend on the processing

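The 19 values tested were recomputed under 114 alternative settings in all, and 84 kept their direction or, for counts, stayed within 1.5 times the value reported. Some of these 84 could not move. The replicate block reuses the same difference in covered length, and the width given to a summit does not change the number of summits per library. Others were counts of lost, gained or pool-shared regions that stayed empty. The 84 is therefore a tally and not a measure of stability. Covered length of SMC3 in myotubes over myoblasts stayed positive, from 551.5 to 5435 bp. At 551.5 bp, with the better-scoring 50% of each list, the groups were not separated. Under siDRR the SMC3 difference of -6189.5 bp became 332 bp at equal list length, and ran from -6417 to -1072 bp under the other settings. At -1072 bp, with the better-scoring 50% of each list, the groups were not separated either. The ATAC difference under siDRR of -537.5 bp became 323.5 bp in the window from -25 to 5 kb, and ran from -1970 to 895 bp with 1 replicate left out. The siSmc3 difference ran from -2049.5 to -698.5 bp.

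Counts of regions are small and moved easily. In myotubes over myoblasts, gained regions numbered 0 with the better-scoring 50% of each list, 2 at equal length and 2 to 4 with 1 replicate left out, against 1; regions called in all 4 libraries numbered 1, 1 and 2 to 4, against 2. Under siDRR, SMC3 regions called in all 4 libraries numbered 0 with the better-scoring 50%, 1 at equal length, 1 when a library had to cover at least 50% of a region and 2 to 4 with 1 replicate left out, against 2. Lost SMC3 regions numbered 2 under that 50% cover rule and 2 to 4 with 1 replicate left out, against 0. ATAC regions called in all 4 libraries under siDRR numbered 3 with the better-scoring 50% and 2 under the cover rule, against 5. ATAC losses were 0 to 1 and gains 1 to 2 with 1 replicate left out in either knockdown, against 0, and siSmc3 had 1 loss under the cover rule. With 1 library on each side a region needs only 1 call, so these counts are higher by construction. ChIRP summits per library with the better-scoring 50% numbered 0.5 in pool 1 and 1.5 in pool 2, against 2 and 3, and pool 2 had 1 at equal length. With 500 bp on each side 1 region was shared by the pools. The cause of the other moves was not tested.

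Blocking on the replicate number, the exact sign-flip test gave p = 0.5 for the SMC3 comparisons and for siSmc3 and p = 1.000 for ATAC under siDRR, with differences of 5291, -6189.5, -1113 and -537.5 bp; the smallest p of 2 pairs is 0.5. Calls of same-numbered libraries deviated together with correlations of 0.036 to 0.152 over regions of the genome, and with 2 pairs the samples share only a number. Unknown depth limits every absent peak.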

Other observations

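Outside the window the closest strong cohesin site lay at -96.2 kb (53534925 to 53536355). It was called in siDRR replicate 2 at percentile 91.0, in both myotube libraries at 91.2 and 85.5 and in both myoblast libraries at 90.6 and 85.0. It was not called in siDRR replicate 1, the shortest SMC3 list, and its score placed it in the upper part of each list that held it. The reason for the missing peak was not tested. Between it and the window, accessible regions at -60.5 and -59.4 kb were called in both control libraries and in neither siSmc3 library. Replicate 2 of siDRR had ATAC peaks overlapping both, at percentiles of 59.2 and 62.6, and siDRR replicate 1 had none. A further accessible region, at -88.3 kb, was called in both control libraries (percentiles 26.3 and 17.6) and in no siDRR or siSmc3 library, both set against the same controls. It ended at 53543751, and siSmc3 replicate 1 had a separate peak close by, from 53543913 to 53544292 (percentile 34.7). The siSmc3 call there thus depends on the rule for merging. A region at 62.7 kb (53694037 to 53694864) went the other way: both siSmc3 libraries called it, with best peaks at percentiles of 48.4 and 70.6, and siDRR replicate 2 did at 42.5, while neither control library did. SMC3 peaks stood at -61.1 and -59.3 kb in myotube replicate 2 (percentiles 23.0 and 6.17) and at -59.3 kb in siDRR replicate 1 (40.1). Under siSmc3, losses made up 1.71% and gains 1.93% of ATAC regions over the genome, and under siDRR losses made up 1.31%. The regions named here were picked out after their values had been seen. On the other side, an SMC3 region at 46.5 kb had no peak in the myotube libraries and a peak in each myoblast library, at percentiles of 25.2 and 39.8. Such losses made up 12.8% of SMC3 regions over the genome.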
